A study of Alternanthera philoxeroides with 2 samples.

Results

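The unigenes described here are the abundant root transcripts of alligator weed (Alternanthera philoxeroides) whose levels stayed close together in low-potassium and fully supplied roots. A unigene is a contig left after a de novo assembly has been made non-redundant, and it may be a whole transcript, a part of one or one of several near-identical copies. The members were chosen by 4 measured criteria. Each had to rank in the top 200 unigenes by FPKM (fragments per kilobase of unigene, scaled to a common library total) in the low-potassium library and in the top 200 in the control library. Each also needed a ratio of low-potassium over control FPKM from 1.0 to 1.7, and a GC content of at least 35% and under 50%. Of 64763 unigenes, 156 ranked in the top 200 of both libraries, and 83 of these met all criteria.

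The 2 libraries hold total RNA from roots of plants that began as field-collected shoots and first spent 10 days in hydroponic solution. For the low-potassium library, plants were then moved for 7 days to a solution that lacked potassium sulfate. For the control library, the other plants stayed for the same 7 days in the normal solution. The move and the loss of sulfate therefore cannot be told apart from the loss of potassium, and the number of plants behind each library is not given in the sources used here. Each condition had 1 library, so differences have no replicate check, no test was possible, and intervals below cover counting error only. The low-potassium library held 16.2 M fragments and the control library 18.9 M. In such bulk RNA, fewer cells of a type and less RNA per cell cannot be told apart.

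Potassium is the main inorganic cation of plant cells, where it balances charge, keeps up turgor and activates many enzymes, and roots take it up through channels and carriers of the plasma membrane. Plants short of potassium change the transcripts of such transporters and of signalling genes, while many transcripts for basic cell functions, such as translation and the cytoskeleton, are often kept at high levels. Transcripts of the second kind are commonly sought as internal references for measurements of other genes. The unigenes carry assembly IDs without gene names and without sequences, so which of them encode such functions is not assigned here.

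The steadiness of the members has to be read against the whole assembly. Over the 55661 unigenes with 20 fragments or more across both libraries, the median ratio of low potassium over control was 1.31 by library totals, a log2 ratio of 0.39. The 83 members had a median ratio of 1.27, a log2 ratio of 0.34, with ratios from 1.01 to 1.69. A ratio in the window of 1.0 to 1.7 was found in 44.0% of the 55661 unigenes, so the window by itself is a common one. Since the rule used these ratios, they describe the members and support nothing about them. TMM scaling moves the middle of all ratios close to 1 and adds -0.40 to each log2 ratio. On that scale the members spread from 0.770 to 1.28, with 44 below 1 and 39 above. For those 44, whether a member counts as slightly higher or slightly lower under low potassium thus depended on the scaling. The 39 were above 1 on both scales. Ratios below are by library totals and are best read against 1.31.

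**Figure D1:**
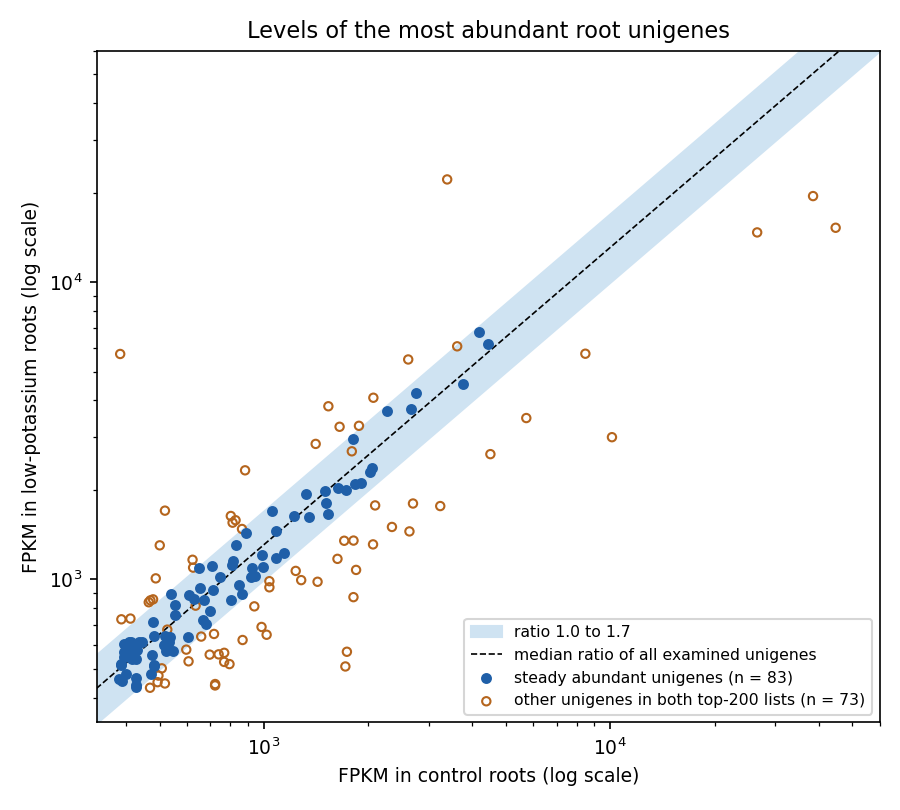
FPKM in low-potassium roots (vertical, log scale) against FPKM in control roots (horizontal, log scale) for the 156 unigenes in the top 200 of both libraries. Filled points are the 83 steady unigenes, open points the other 73, the band spans ratios of 1.0 to 1.7 and the dashed line marks the median ratio of 1.31; the 83 fill the band up to 4447 FPKM in control roots and 6780 in low-potassium roots, and the most abundant unigenes of all lie outside it.

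By its lower ratio limit of 1.0 the rule fixed that the members' joint share was larger in the low-potassium library, so the shares are given for their size only. The members held 1380860 of the low-potassium fragments, or 8.51% (exact 95% interval 8.50 to 8.53), against 1221978 of the control fragments, or 6.45% (6.44 to 6.46). By summed FPKM, which corrects for length, their shares were 9.50% in the low-potassium and 8.50% in the control library. The other 73 unigenes of both top lists took 19.9% of low-potassium fragments and 36.7% of control fragments. A share is bounded by the rest of the library, so the smaller share of those 73 and the larger share of the members under low potassium are not independent measurements.

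The other 73 missed the rule mostly by their ratio. Of these, 45 had a ratio under 1.0 and 23 a ratio over 1.7, while 5 had a ratio inside the window and a GC content outside the limits. In the low-potassium library 22 members ranked in the top 50 and 47 in the top 100, against 18 and 41 in the control library, and 18 were in the top 50 of both. The ranks of the median member differed by 12 places between the libraries.

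Ordered by the mean log2 FPKM of both libraries, the first member was CL4711.Contig2_All, of 1051 bases and 37.1% GC. It had 115566 fragments (6780 FPKM, rank 5) in low-potassium roots, against 83163 fragments (4179 FPKM, rank 9) in control roots, a ratio of 1.62 (1.61 to 1.64). It alone held 8.37% of the members' low-potassium fragments and 6.81% of their control fragments. Both values are high in the list, and its ratio lay above the median of the assembly.

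Second in that order, and ahead of it in the control library, came Unigene17224_All, of 816 bases and 42.6% GC, with 81891 fragments (6188 FPKM, rank 6) under low potassium and 68716 (4447 FPKM, rank 8) in the control. Its ratio of 1.39 (1.38 to 1.41) lay above the assembly's median of 1.31 with its whole counting interval. Under 2% of its read placements came from reads with several hits in either library. It is therefore the first member in that order whose level rests almost wholly on uniquely placed reads.

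Short unigenes followed. CL4185.Contig3_All, of 231 bases, had 4553 FPKM from 17058 low-potassium fragments and 3751 FPKM from 16406 control fragments, a ratio of 1.21 (1.19 to 1.24). CL1423.Contig8_All, the shortest member at 211 bases, had 4230 FPKM from 14475 low-potassium fragments and 2756 FPKM from 11010 control fragments, a ratio of 1.54 (1.50 to 1.57). Unigene8497_All, of 511 bases and 48.1% GC, had 3742 FPKM from 31006 low-potassium fragments and 2654 FPKM from 25678 control fragments, a ratio of 1.41 (1.39 to 1.43). FPKM of such short contigs can be sensitive to how many fragments reach beyond the contig's ends, a point taken up with the read placements below.

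The remaining 5 of the 10 most abundant members split between ratios well above and well below 1.31. CL4711.Contig6_All had 3696 FPKM under low potassium and 2261 in the control, a ratio of 1.63. Unigene16285_All had 2957 FPKM under low potassium and 1809 in the control, also a ratio of 1.63. Unigene33092_All had 2376 FPKM under low potassium and 2054 in the control, a ratio of 1.16 (1.14 to 1.18). Then came Unigene6528_All, with 2291 FPKM under low potassium and 2029 in the control (ratio 1.13), and CL3584.Contig1_All, with 2114 under low potassium and 1913 in the control (ratio 1.11). The last 3 lay below the median ratio with their whole counting intervals. The 10 together held 29.1% of the members' low-potassium fragments and 27.0% of their control fragments.

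At the other end of the abundance range, the member of worst rank was Unigene1413_All, with 5273 fragments (463 FPKM, rank 175) under low potassium and 5093 (383 FPKM, rank 199) in the control. Unigene11346_All was next, with 515 FPKM (rank 155) under low potassium and 386 (rank 197) in the control. Outside the cutoff by a few places lay Unigene1416_All, ranked 173 in the low-potassium and 202 in the control library, and CL4860.Contig2_All, ranked 168 and 205. Their ratios of 1.26 and 1.31 would have met the window. The member levels spanned 15.6-fold in the low-potassium and 11.6-fold in the control library.

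At these deep counts the intervals are narrow, and the ratios of many members differed from one another by more than counting error. The counting interval of 10 members held the assembly's median ratio of 1.31, that of 31 lay wholly above it and that of 42 wholly below it. By ratio, 17 members lay under 1.1, 16 from 1.1 to 1.2, 11 from 1.2 to 1.3 and 15 from 1.3 to 1.4. A further 12 lay from 1.4 to 1.5, 5 from 1.5 to 1.6 and 7 from 1.6 to 1.7. Fewer members lay near the upper end of the window than near its lower end. The rule bounded these ratios, and no such counts are given here for other unigenes, so they only describe the members. These spreads are between 2 libraries, and the spread between plants was not measured.

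**Figure D2:**
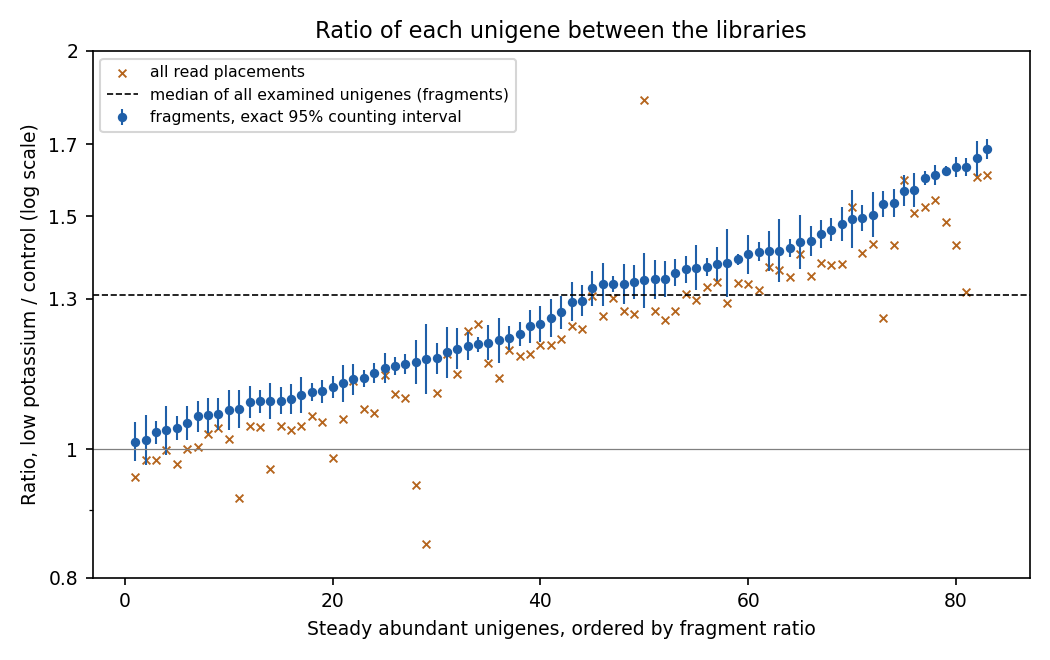
Ratio of low potassium over control (log scale) for the 83 members in rising order. Points with bars give the fragment ratio with its exact 95% counting interval, crosses the ratio of all read placements per library total, the dashed line the median of 1.31; most crosses lie slightly under their point, and a few members stand far from theirs.

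The members nearest the lower bound were level between the libraries by library totals. CL488.Contig1_All had 480 FPKM from 6325 low-potassium fragments and 473 FPKM from 7286 control fragments, a ratio of 1.01 (0.980 to 1.05). Unigene17806_All had 434 FPKM under low potassium and 427 in the control, a ratio of 1.02 (0.973 to 1.06). CL6928.Contig1_All had 891 FPKM under low potassium and 865 in the control, a ratio of 1.03 (1.01 to 1.05). Of all members, 3 had an interval that included 1. Just outside the bound lay CL488.Contig2_All with a ratio of 0.990 and CL1814.Contig1_All with 0.974. CL488.Contig2_All belongs to the same cluster as the lowest member, and a difference of a few hundredths separated the contig kept from the contig left out.

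Near the upper bound, CL3702.Contig1_All had 32355 fragments (1095 FPKM, rank 67) under low potassium and 22409 (650 FPKM, rank 104) in the control, a ratio of 1.69 (1.66 to 1.71). CL1053.Contig3_All had 894 FPKM under low potassium and 539 in the control, a ratio of 1.66 (1.61 to 1.71). Just above the bound were Unigene11225_All with 1.71 and CL4711.Contig5_All with 1.75. The intervals of CL3702.Contig1_All and CL1053.Contig3_All both reach over 1.7, so membership at this edge was within counting error.

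In the authors' deposited table, 77 of the 83 members carry an FDR of 0.001 or less, beside 28.1% of all 64763 unigenes. Such an FDR sets one library against another, not one condition against another, and it comes from the contrast that chose the members, so nothing is read from the count. The 6 members above that limit, among them CL488.Contig1_All and Unigene17806_All, have deposited log2 ratios of 0.02 to 0.07.

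Features that the rule did not use varied widely. Members were 211 to 2371 bases long, with a median of 790, beside a median of 684 for the other 73 abundant unigenes and 472 for the 55661. The longest were Unigene23_All, of 2371 bases, with 1694 FPKM under low potassium and 1057 in the control, and CL6086.Contig1_All, of 2103 bases, with 960 under low potassium and 849 in the control. Their ratios of 1.60 and 1.13 stand on different sides of the median. The shortest after CL1423.Contig8_All was Unigene23281_All, of 217 bases, with 1096 FPKM under low potassium and 926 in the control (ratio 1.18). FPKM divides by length, so the abundance criterion is not fully independent of it.

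Within the GC window the median ratio differed between classes in the same order as in the whole assembly. The 32 members of 35 to 40% GC had a median ratio of 1.21, the 34 of 40 to 45% had 1.31 and the 17 of 45 to 50% had 1.37. Among all examined unigenes of those classes the medians were 1.22, 1.27 and 1.49. The rule used both ratio and GC content, so the members' medians are bounded by the window and nothing is read from the shared order. The member of highest GC content was Unigene20647_All at 49.8%, with 1449 FPKM under low potassium and 1086 in the control, and Unigene26935_All followed at 49.2% with 1222 under low potassium and 1141 in the control. The lowest were Unigene16285_All at 36.1% and CL219.Contig2_All at 36.2%. Left out by GC alone were, among others, CL4519.Contig3_All at 34.1% with a ratio of 1.68, Unigene11377_All at 34.7% with 1.50 and Unigene26903_All at 50.7% with 1.29. CL4519.Contig3_All, with 6078 FPKM under low potassium and 3614 in the control, is as abundant as the leading members.

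By kind of ID, 39 members (47.0%) carry a cluster and contig number, a form that de novo assemblies commonly give to contigs that resemble each other, and 44 carry a single number. Of the other 73 abundant unigenes 63.0% are cluster contigs, and of the 55661 42.6%. Among the single-numbered members, 38 have a number under 20000 and a median ratio of 1.27, and the 19742 examined unigenes in that range had a median of 1.26. The remaining 6 come from ranges where ratios were mostly far from 1.31. Unigene20647_All and Unigene23281_All, at 1.33 and 1.18, lie between 20000 and 25000, where the median was 0.562. Unigene26910_All, Unigene26935_All, Unigene32841_All and Unigene33092_All, at 1.07 to 1.34, lie above 26000, where the median was 3.74. These 6 passed the ratio window by the rule, and the ID numbers were looked at because earlier results of these data had shown that pattern.

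Contigs of one cluster did not always share the steadiness of the member among them. The 39 clustered members fall into 35 clusters, which hold 103 further contigs, 97 of them with 20 fragments or more. These 97 were much less abundant, with a median of 59.9 FPKM under low potassium and 36.8 in the control, and their median ratio was 1.31. In the window lay 44 of them (45.4%), 21 lay under 1.0 and 32 over 1.7, beside 53.8% of all 23723 examined cluster contigs in the window. At least 2-fold higher under low potassium were 19 (19.6%), and 0 were at least 2-fold lower, beside 12.6% and 4.08% of those 23723. The members, all abundant and inside the window, are left out of the 97, while the 23723 still contain them. Among the 97, 11 ranked in both top lists and so had missed the rule by their ratio or GC content. Both comparisons with the 23723 were thus partly fixed by the rule, as was the lower abundance of the 97. Nothing is read from these differences. Of the 35 clusters, 5 hold no contig but the member. In 13 of the other 30 the members held over 90% of the cluster's fragments in both libraries.

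All contigs of cluster CL4711 had higher ratios than the assembly's median. Its members CL4711.Contig2_All and CL4711.Contig6_All had ratios of 1.62 and 1.63, and its 4 other contigs ratios from 1.46 to 2.10. CL4711.Contig1_All, of 297 bases, was the highest, with 5490 FPKM under low potassium and 2610 in the control. The members held 71.6% of the cluster's low-potassium fragments and 74.6% of its control fragments. With TMM scaling each ratio is 0.760 times as large, and all 6 stay above 1 as point values. CL4711.Contig4_All, at 1.46 (1.19 to 1.81), was within counting error of the assembly's median, and also of 1 with TMM scaling. It and CL4711.Contig3_All had 61 and 72 unique reads under low potassium, against 36911 and 217981 placements of reads with several hits. CL4711.Contig1_All had 33412 against 7624, so the contigs differ in how far they rest on shared reads.

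Ratios in cluster CL1423 lay on both sides of 1. Its members CL1423.Contig8_All and CL1423.Contig10_All had ratios of 1.54 and 1.57, but they held only 19.0% of the cluster's low-potassium fragments and 12.5% of its control fragments. Of its 9 contigs of 900 bases or more, 8 had a ratio under 1.0, with the lowest at 0.624. Of the 7 shorter ones 1 did, CL1423.Contig13_All, at 1500 FPKM under low potassium and 2342 in the control. CL1423.Contig11_All, of 625 bases, was the highest of the cluster at 2.02, with 2854 FPKM under low potassium and 1411 in the control. Ratios in this one cluster thus ran from 0.624 to 2.02, and how alike its contigs are in sequence was not examined. In all 9 of the longer contigs most placements came from reads with several hits, so their ratios are not separate observations. The lowest, CL1423.Contig2_All, had 12 unique reads under low potassium and 21 in the control, against 62000 and 82775 such placements. CL1423.Contig4_All, at 0.687, had 21323 and 35975 unique reads. Both this cluster and the length limit were picked with these values in view.

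Cluster CL7915 contained 3 members. CL7915.Contig13_All had 1803 FPKM under low potassium and 1506 in the control (ratio 1.20). CL7915.Contig8_All had 1623 under low potassium and 1352 in the control (1.20), and CL7915.Contig6_All 1628 under low potassium and 1221 in the control (1.33). Reads with several hits gave 70.5%, 73.1% and 61.8% of their placements under low potassium, and 67.4%, 70.3% and 61.3% in the control. The 3 ratios may thus not be separate observations. By unique reads they were 1.20, 1.21 and 1.38. The 3 members had GC contents of 43.6%, 45.9% and 44.9%. They held 97.3% of the cluster's low-potassium fragments and 99.2% of its control fragments. Its 7 other examined contigs were rare, and all were higher in the low-potassium library, with ratios from 2.95 to 19.2. GC made up 50% or more of 6 of them, and these reached at most 36.2 FPKM under low potassium and 8.24 in the control. The steady members and the rare contigs thus carry one cluster number while differing in level, base composition and ratio.

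**Figure D3:**
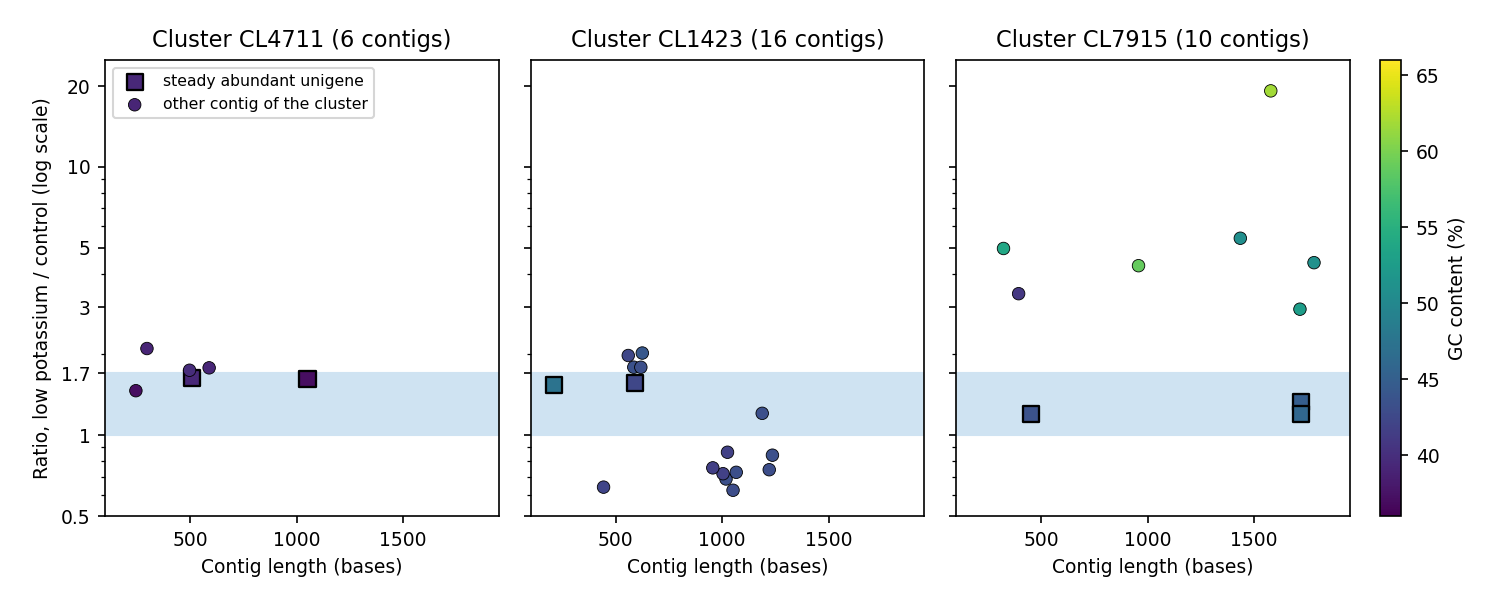
Ratio of low potassium over control (vertical, log scale) against contig length for contigs with 20 fragments or more in the 3 clusters that hold several members. Squares are members, circles the other contigs, colour gives GC content and the band spans ratios of 1.0 to 1.7; circles lie near the band in CL4711, mostly under it for the long contigs of CL1423 and all above it in CL7915.

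Other clusters held a steady member beside contigs with ratios far from its own. In CL4185 the member CL4185.Contig3_All, at a ratio of 1.21, took 31.9% of the cluster's low-potassium fragments and 64.4% of its control fragments, beside 3 companions with ratios from 3.78 to 6.64. CL4185.Contig1_All, of 1262 bases, had 1274 FPKM under low potassium and 277 in the control. It and CL4185.Contig2_All had 51236 and 6331 unique reads under low potassium, against 274551 and 278383 placements of reads with several hits. The ratios of these 2 companions may thus not be separate observations. CL4185.Contig4_All, at 3.78, rested more on unique reads, with 8570 against 3717 such placements under low potassium. In CL7947 the member CL7947.Contig2_All had 816 FPKM under low potassium and 552 in the control (ratio 1.48), while its only companion, CL7947.Contig1_All, had 558 under low potassium and 697 in the control (0.800). The member was the less abundant contig of the pair in the control and the more abundant one under low potassium. Few reads with several hits fell on either, 93 and 89 placements under low potassium and 77 on each in the control, so shared reads are a small part of these counts. In CL7484 the member CL7484.Contig2_All had a ratio of 1.07 and its companion one of 0.662, both below 1.31. CL73, the largest of the 35 clusters with 21 contigs, was the opposite case, with CL73.Contig18_All at 1.15 and 17 of its 20 companions in the window. Most of these companions drew their placements mainly from reads with several hits, so their ratios are not separate observations. CL73.Contig13_All had 0 unique reads in either library, against 34560 placements of such reads under low potassium and 30630 in the control. CL73.Contig10_All went the other way, with 5724 and 5191 unique reads against 974 and 895 such placements. These clusters were chosen after their values were seen.

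Reads with several hits weighed heavily on a few members and were absent from many. In each library 38 members had any such placement, and 43 members had 0 in both. In 11 members under low potassium and 10 in the control, over 50% of placements came from reads with several hits, which is 13.3% and 12.0% of the members. The same held for 17.8% and 19.2% of the other 73 abundant unigenes and for 16.2% of the 55661 in both libraries. Over all members these reads gave 41.7% of placements under low potassium and 43.7% in the control, and the 5 members with most of them held 74.3% and 74.0% of such placements.

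The extreme case was Unigene26910_All, of 286 bases. Under low potassium it had 78286 placements of reads with several hits and 3484 unique reads, against 103483 and 3527 in the control. The fragment table assigns it 455 FPKM from 2112 low-potassium fragments and 389 FPKM from 2106 control fragments. That is 38.7 placements per fragment in the low-potassium library and 50.8 in the control. By mean depth of coverage it ranked 10 in the low-potassium library and 7 in the control, far above its FPKM ranks of 181 and 194. Its ratio was 1.17 by fragments, 1.18 by unique reads and 0.848 by all placements, so its level, and its side of 1 by library totals, depend on how shared reads are treated. By each measure it lay below the median of the 55661 unigenes, which was 1.31 by fragments, 1.35 by unique reads and 1.25 by all placements.

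Unigene14089_All and Unigene14090_All, the only members with consecutive ID numbers, were the next. They had 265878 and 255437 placements of reads with several hits under low potassium, and 302799 and 290777 in the control. These were over 92% of the placements of each, and how many of these reads the members share is not resolved by the files. By fragments they had 1020 and 708 FPKM under low potassium, against 915 and 682.5 in the control, with ratios of 1.11 and 1.04. By all placements both ratios were under 1, at 0.985 and 0.975, beside a median of 1.25 for the 55661 unigenes. These were 0.883 and 0.940 times the fragment ratios. In members without shared reads that factor ran from 0.929 to 0.998, so the shift of Unigene14090_All lay inside their range.

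Across the 83 members, the ratio of uniquely placed reads stayed within 1.0 to 1.7 in 81 and was above it in CL4711.Contig2_All (1.72) and CL3702.Contig1_All (1.73). The ratio of all placements stayed inside in 72, was under 1.0 in 10 and above 1.7 in 1. In the median member without shared reads, the ratio of all placements was 0.955 times the fragment ratio. The single member above was Unigene32841_All, at 1.34 by fragments and 1.84 by all placements, with 5811 placements of shared reads under low potassium and 2507 in the control. Unigene16285_All, one of the most abundant members, had a ratio of 1.63 by fragments and 1.31 by all placements.

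In members without shared reads, the number of reads per fragment can be read as a sign of whether 1 mate or both were placed. That reading assumes that the read and fragment counts come from the same alignment, which no source used here states. The number ranged from 1.01 to 1.97 over these 43 members in both libraries, with medians of 1.79 under low potassium and 1.76 in the control. The 6 of them under 500 bases had medians of 1.37 under low potassium and 1.36 in the control, and the 37 longer ones 1.79 in both. The longer ones ran from 1.28 to 1.97 under low potassium and from 1.27 to 1.97 in the control. These 6 ran from 1.01 to 1.85 under low potassium and from 1.01 to 1.86 in the control, and 2 of them, Unigene12025_All and Unigene17773_All, lay above the median of the longer ones in both libraries. Unigene26935_All, of 307 bases, had 1.01 in both libraries, close to 1 read per fragment, and how its fragments were counted was not tested. Across these 43 unigenes the Spearman correlation of length with reads per fragment was 0.42 under low potassium and 0.47 in the control. The same reads lie behind numerator and denominator, and unigenes are not independent replicates. For a given unigene the libraries differed by a median of 0.0145 and at most 0.0553 reads per fragment.

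**Figure D4:**
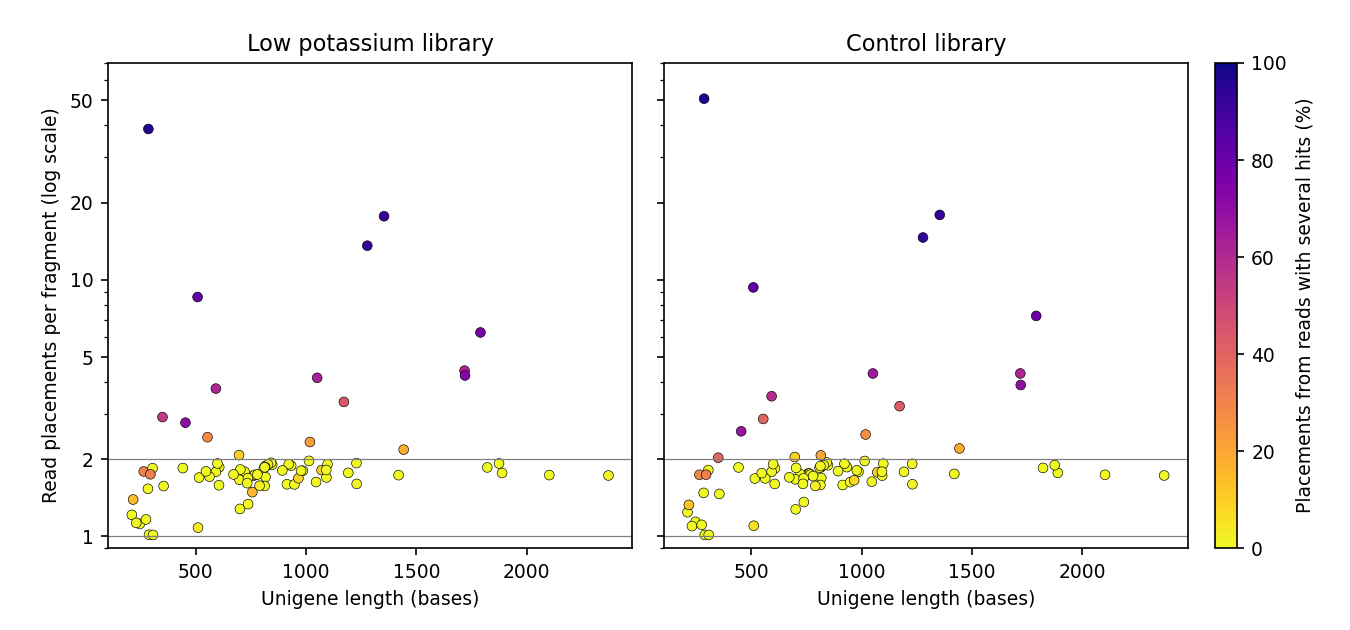
Read placements per fragment (vertical, log scale) against unigene length for the 83 members, in the low-potassium library (left) and the control library (right). Colour gives the percent of placements from reads with several hits and the grey lines mark 1 and 2; most members lie between the lines, some of the short ones near 1, and Unigene26910_All stands highest in both panels.

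Reads covered nearly the full length of most members. The median covered length was 99.35% under low potassium and 99.02% in the control, beside 99.4% in both libraries for the other 73 abundant unigenes. At least 95% was covered in 77 members under low potassium and 75 in the control, beside 72 and 70 of the other 73. That is a smaller part of the members than of those 73. The least covered were CL4097.Contig1_All, at 88.05% in both libraries, and CL4703.Contig3_All, at 91.2% in both. Both had the same share covered in the 2 libraries, at 18628 and 7697 low-potassium fragments and 19654 and 8013 control fragments.

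For other members the covered length differed between the libraries. Under low potassium 35 members were covered over a longer part, 22 over a shorter part and 26 equally, beside 24, 23 and 26 of the other 73. Over the 55661 unigenes the median covered length was also larger under low potassium, at 98.4% against 97.8% in the control. A gain of at least 1 percentage point was seen in 12 members and a loss of that size in 6, beside 11 and 7 of the other 73. The largest gain was in CL8523.Contig1_All, covered over 98.6% under low potassium and 92.8% in the control, although its shared-read placements were fewer under low potassium (3624 against 6075). Unigene3490_All followed with 99.8% under low potassium and 94.97% in the control, at about equal fragments (10752 and 10717). Among the losses, Unigene13294_All was covered over 95.5% under low potassium and 99.4% in the control, with 18309 and 17499 fragments. These 3 were named after their values were seen.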

How the data were processed

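Per the file headers, the authors deposited raw fragment counts per unigene with library totals, FPKM values and the length of each unigene in one table, together with their log2 ratio and their p-value and FDR from a test that no source used here names. Recomputing FPKM from the other columns gave each of the 129526 values to within 0.0001. A coverage table per library gives, per the file headers, counts of unique and several-hit reads, the mean depth of coverage (a signal per base) and the percent of length covered and of GC. The series title names a de novo assembly, whose tools no source used here names.

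The rule was applied to the FPKM columns and GC content. Ratios compare fragments per library total, with exact 95% Clopper-Pearson intervals of the low-potassium part of both counts. The 55661 unigenes whose fragments in both libraries summed to 20 or more served as background. Read ratios used 27.5 M unique reads under low potassium and 32.9 M in the control, or 54.5 M and 60.5 M placements. TMM and upper-quartile factors came from edgeR 4.0.16 in R 4.3.3; the rest was done in Python 3.11.15 with pandas 2.3.3 and SciPy 1.17.1. The interval calculation was checked on simulated counts that held counting error only, which says nothing about the spread between libraries.

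Members, lists and comparisons were chosen with earlier results of these data known. Named are the 10 most abundant members, those nearest each limit of the rule on both sides, the extremes of length, GC, coverage and several-hit reads, members that share a cluster, and others where the text says so. No gene lists were used, since IDs carry no names.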

Additional observations from a re-analysis of the deposited data

How the results depend on the processing

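The number of members followed the abundance cutoff, with 40 in the top 100 and 175 in the top 400 of each library. The other settings gave 60 to 114, with 60 by mean depth of coverage, a setting chosen after seeing the data; of these 60, 24 are among the 83, while unique reads found 88, of which 76 are. By FPKM, unique reads and totals without the 2 most abundant unigenes, the joint shares were 9.50%, 8.05% and 9.50% under low potassium and 8.50%, 5.92% and 8.89% in the control. The members' median log2 ratio of 0.34 became -0.0525 with TMM, -0.0569 with median-ratio and -0.0559 with upper-quartile scaling, 0.0396 without the 2 most abundant unigenes, 0.38 by unique reads and 0.15 by depth, and hardly moved with pseudocounts. The share of unigenes in the window was 39.4%, 56.7% and 64.4% with minimums of 1, 100 and 1000 fragments. Clustered members had medians of 0.442% (low potassium) and 0.496% (control) several-hit placements. With the median taken over unigenes of 1000 fragments or more, 6 intervals held it. The other contigs of member clusters had a median ratio of 0.999 with TMM. Of 256 ratios of 32 named members under other settings, 80 stayed within their counting interval. The causes were not tested. No paired analysis was possible because there was 1 library per condition. Counting error is small at these depths, and the lack of replicate libraries limits what the ratios show.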
